A study of Mus musculus with 9 samples.

Results

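Voltage-gated calcium and sodium channel subunit genes were followed in inner ear hair cells (HCs), which turn sound and head movement into electrical signals, of mice with 0, 1 or 2 copies of the diminuendo (Dmdo) allele of Mir96. Genes were chosen by name, as those whose symbol begins with Cacna, Cacnb or Cacng, or is Scn with a number and the letter a or b. The pattern matched 40 of the 43808 genes in the table, 2 of which are not described here, so 38 remained. They are 9 pore-forming (alpha1) calcium channel subunits, 4 alpha2delta subunits, 3 beta subunits, 8 genes of the Cacng family, 10 pore-forming (alpha) sodium channel subunits and 4 sodium channel beta subunits. The homozygous mutant group carried Dmdo on both copies of Mir96, the heterozygous group carried 1 Dmdo allele and the wild-type group carried none, and all 3 groups carried the Atoh1/nGFP reporter, which labels HCs with green fluorescent protein. Each group was 3 mice at P1 with 1 library each. The authors call the wild-type mice littermate controls, but the labels do not give litters. A C3HeB/FeJ line (Dmdo) was crossed with a C57BL6 line (reporter) to give breeders with 1 Dmdo allele and the reporter. Cells positive for the reporter and for the epithelial surface protein CD326 were sorted from cochlea and vestibular organs together, so the values are averages over auditory and vestibular HCs. In such bulk samples, fewer cells of a type and less RNA per cell cannot be told apart.

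Voltage-gated calcium channels open on depolarization, and in HCs the calcium that enters at ribbon synapses drives glutamate release onto the sensory neurons. A channel is built around 1 alpha1 subunit, which forms the pore. The extracellular alpha2delta and cytoplasmic beta subunits bring it to the membrane and tune its gating, while most members of the Cacng family are better known as partners of AMPA-type glutamate receptors. Voltage-gated sodium channels carry the fast inward current of action potentials, pair 1 pore-forming alpha subunit with beta subunits that have an immunoglobulin-like domain, and are found in immature HCs, which fire action potentials before hearing begins.

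The product of Mir96, miR-96, is a microRNA of the inner ear, and microRNAs lower the level of mRNAs whose 3′ untranslated regions (UTRs) pair with their seed, bases 2 to 8 from the 5′ end. The mature sequences are shown because the groups differ by 1 base of them, with the seed in capitals (RefSeq, GRCm38.p6, chr6:30169506-30169528, minus strand). The Dmdo line has 1 A-to-T change in the seed, and the wild-type seed holds a single A, which gives A7U (the wild-type base first, position counted from the 5′ end).
miR-96-5p, wild-type: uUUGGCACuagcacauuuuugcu
miR-96-5p, Dmdo: uUUGGCUCuagcacauuuuugcu

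Seed matches were searched on the transcript strand of the longest annotated 3′ UTR of each gene (GENCODE vM21, GRCm38). A match to the miR-96 seed was either GTGCCAA, which pairs with the whole seed, or TGCCAAA, which pairs with all but its last base and ends in an A, and the overlap of both, GTGCCAAA, counted as 1 match of 8 bases. The Dmdo seed was matched likewise by GAGCCAA, which pairs with the whole seed, or AGCCAAA, which lacks the last pair, and by their overlap GAGCCAAA. Scn3b, the subunit on which the results below turn, held no miR-96 match and 2 Dmdo matches in its 3′ UTR of 3181 bases, at UTR bases 514 to 520 (chr9:40288951-40288957, plus strand) and 728 to 734 (chr9:40289165-40289171). The 8-base matches in genes with enough reads to be compared are shown with these, each as the mRNA-strand sequence with its flanks in lower case and the match in capitals. They lie at chr9:107528226-107528233 (Cacna2d2, plus strand), chr15:101043850-101043857 (Scn8a, plus strand) and chr2:65458473-65458480 (Scn3a, minus strand).
Scn3b, Dmdo seed, upstream match: gaactgaaGAGCCAAcatctctc
Scn3b, Dmdo seed, downstream match: tgtttaaaAGCCAAAgtgtggca
Cacna2d2, miR-96 seed: gtcaaaccGTGCCAAAtgctgggg
Scn8a, Dmdo seed: aaaacgcaGAGCCAAAgcccctga
Scn3a, Dmdo seed: tcgttattGAGCCAAAagaataaa

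A Dmdo match was present in 4 of the 23 subunit genes with enough reads (17.4%; Scn2a, Scn3a, Scn3b and Scn8a), against 19.4% of the 12981 genes that passed the same read minimum and had an annotated 3′ UTR. A miR-96 match was present in 10 of the 23 (43.5%), against 19.7% of those genes. The 10 were Cacna1b, Cacna1c, Cacna1e, Cacna2d1, Cacna2d2, Cacnb1, Cacng5, Scn2a, Scn3a and Scn8a. Scn2a, Scn3a and Scn8a thus held matches to both seeds. Multiple Dmdo matches, as in Scn3b, were also present in Scn2a and Scn8a, neither of which passed the tests below. The channel genes also had longer 3′ UTRs, with a median of 2272 bases against 1218, and the part of length in the difference was not tested. A match describes the letters of the UTR and is not a measured binding site.

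Library totals ran from 18175317 to 34873964 reads counted in genes, and the values below are CPM, read counts divided by the library total after scaling with TMM factors. The libraries of wild-type mouse 59 and homozygous mutant mouse 46 stood apart from the other 7, on the first and second principal components (23.1% and 19.5% of the variance), and had the lowest quality weights (0.548 and 0.602). RNA integrity was lower in a wild-type and a homozygous mutant sample than in the rest, but the methods do not say which mice these were. Reads of Xist exceeded those of Ddx3y in wild-type mice 44 and 59 and heterozygous mouse 48 and not in the other 6 mice, so all homozygous mutants were in 1 class. The 5 mice numbered 47 or lower were the 3 homozygous mutants, heterozygous mouse 45 and wild-type mouse 44. Of the 12 HC marker symbols searched, 11 were in the table and all 11 had enough reads, with Pou4f3, Myo7a and Otof among them. The symbol not found was Myo15, a gene that the authors also write as Myo15a and report as lower in homozygous mutants.

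Of the 38 channel genes, 23 reached 20 reads in 2 or 3 libraries of any genotype, and 18 of these did so in all 3 genotypes. Cacna1a, Cacna1e and Cacna1g met it in 2 genotypes, and Scn2a and Scn3a in 1. No read was counted in any library for 10 genes, Cacna1f, Cacna1i, Cacng1, Cacng6, Cacng7, Cacng8, Scn1a, Scn9a, Scn10a and Scn4b. Over the 245203038 reads of the 9 libraries, 0 reads allow a level of up to 0.0122 CPM (3 reads), counting error only. They include the pore of the retinal L-type channel (Cacna1f), a T-type pore (Cacna1i) and 2 pores of pain-sensing neurons (Scn9a and Scn10a).

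The other 5 genes without enough reads had reads in few libraries. Cacnb4, a brain-enriched beta subunit, had 190 reads in homozygous mutant 46, at most 18 in any heterozygous library and 44 in wild-type 55. Scn2b had 58 reads in homozygous mutant 46 and at most 5 in any other library. The mesenchyme list (6 genes, 0 called) summed to 808 CPM in that same library, against 70.6 to 237 CPM over the other 8, and the endothelial list to 20.7 CPM, the highest of the 9. The sort required both the reporter and CD326. The part of mesenchymal and endothelial cells in the Cacnb4 and Scn2b reads was not tested. Cacng3 was found in homozygous mutant 43 alone (29 reads), Scn7a in heterozygous 51 (39 reads) and wild-type 55 (31 reads), and Cacna1s, the pore of skeletal muscle, in wild-type 55 alone (36 reads).

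Of the 23 subunits compared, Scn3b was lower in homozygous mutant than in wild-type HCs at a false discovery rate under 10% with a fold change above 1.5, and no other subunit passed. That is 1 of 23, against 1.15% of all 15184 genes tested (0.915% called lower, 0.237% called higher). At an unadjusted p under 0.05 there were 2, Scn3b and Cacna2d2, where 13.1% of all genes passed. DESeq2, with 6.32% of genes called, and limma-voom with quality weights, with 2.23%, each called Scn3b alone. The authors, who used DESeq2 with the same thresholds on the same libraries, also report Scn3b as significantly lower in homozygous mutants. The log2 fold change was below 0 in 17 of the 23, against 50.8% of all genes, with a median of -0.63 (all genes -0.02). The 23 genes were read off the same 9 libraries and their differences have wide errors, as the plot of fitted differences shows.

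**Figure D1:**
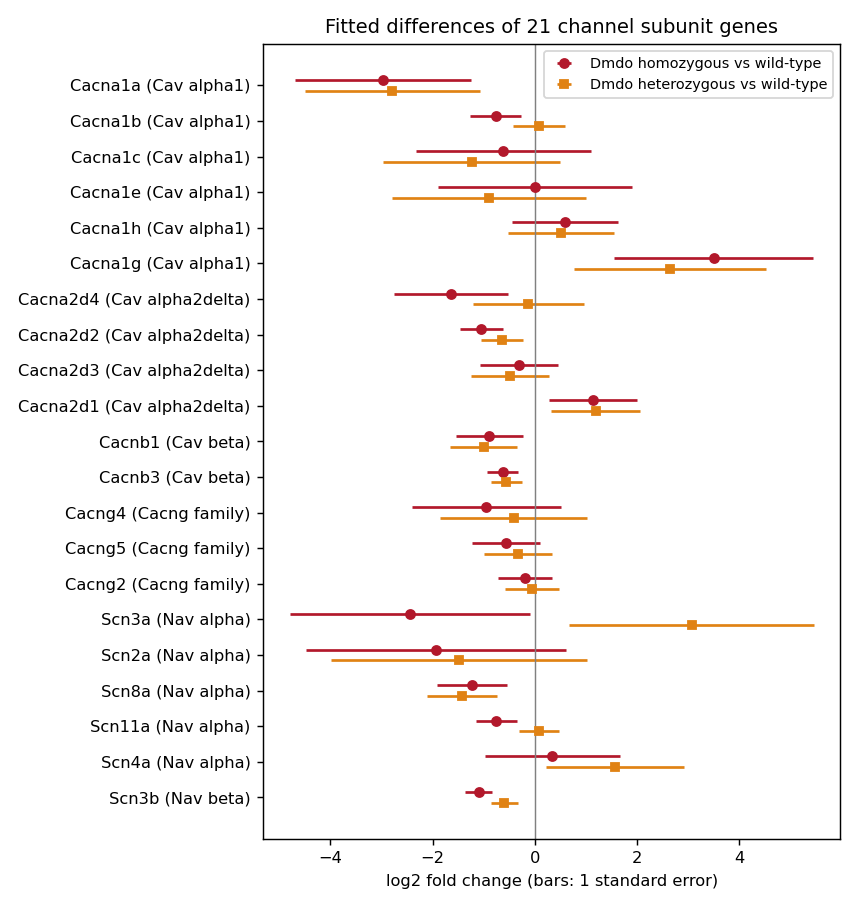
Fitted log2 fold changes of 21 of the channel subunit genes with enough reads, for homozygous mutant (circles) and heterozygous (squares) against wild-type HCs, with bars of 1 standard error (edgeR, 9 libraries). The 2 comparisons share the wild-type libraries. Scn3b, at -1.10 in homozygous mutants, has one of the shortest bars, and those of Cacna1a, Cacna1g, Scn2a and Scn3a are several times as long.

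Scn3b (ENSMUSG00000049281, GRCm38 chr9:40269217-40291618, plus strand) encodes a non-covalently attached sodium channel beta subunit. Its level was 113, 122 and 130 CPM in homozygous mutant libraries 43, 46 and 47, 166, 163 and 190 CPM in heterozygous libraries 45, 48 and 51, and 228, 225 and 329 CPM in wild-type libraries 44, 55 and 59. No library of 1 genotype overlapped another, and each homozygous mutant lay below each heterozygote, which in turn lay below each wild-type library. Of all 15184 genes, 0.408% had this complete order and 0.257% its reverse. The means were 122 ± 8.15 CPM in homozygous mutant, 173 ± 14.7 CPM in heterozygous and 261 ± 59.4 CPM in wild-type HCs (SD, n = 3 each).

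Homozygous mutant HCs held 0.467 times the wild-type level of Scn3b, -1.10 ± 0.26 on the log2 scale (± standard error, adjusted p = 0.0657 with edgeR's quasi-likelihood test and Benjamini-Hochberg adjustment). The heterozygous level was 0.664 times that of wild-type, or -0.59 on the log2 scale, which did not pass (standard error 0.26, unadjusted p = 0.0318 and adjusted p = 1 with edgeR). The homozygous mutant level was 0.704 times that of heterozygotes, which did not pass either (log2 fold change -0.51, standard error 0.26, edgeR adjusted p = 0.730). For 1 gene alone, the smallest p that an exact permutation test of 3 mice against 3 allows is 0.1.

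The direction of Scn3b was the same under all 20 alternative fits, with log2 fold changes from -1.20 to -0.88, but the call at 10% was kept in 10 and lost in 10 (adjusted p 0.0031 to 0.625). Without wild-type 59 and homozygous mutant 46 it was -0.88 (edgeR adjusted p = 0.314). Leaving out 1 library ended the call for wild-type 59 (edgeR adjusted p = 0.243), heterozygous 51 (0.125) and homozygous mutants 43 (0.259), 46 (0.200) and 47 (0.169). Within the 5 mice numbered 47 or lower, the levels were 113 to 130 CPM in homozygous mutants, 166 CPM in the heterozygote and 228 CPM in the wild-type mouse. Among mice numbered 48 or higher, they were 163 and 190 CPM in heterozygotes and 225 and 329 CPM in wild-type mice, with no homozygous mutant in that class. Among the 6 mice with more Ddx3y than Xist reads, levels were 113 to 130 CPM in homozygous mutants, 166 and 190 CPM in heterozygotes and 225 CPM in the wild-type mouse. The other 3 mice held 163 CPM (heterozygous 48) and 228 and 329 CPM (wild-type 44 and 59). With the number class or the Xist class in the model, the log2 fold change was -0.97 (edgeR adjusted p = 0.307) or -1.03 (edgeR adjusted p = 0.625).

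**Figure D2:**
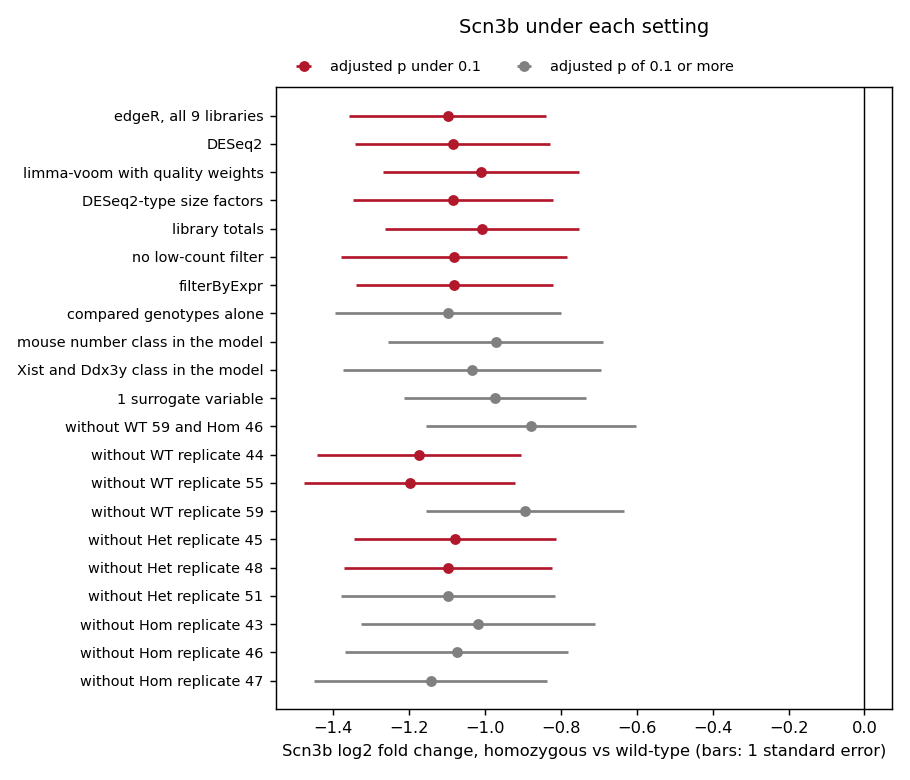
Log2 fold change of Scn3b in homozygous mutant against wild-type HCs under the main fit and 20 alternatives, with bars of 1 standard error. Every estimate lies between -1.20 and -0.88, and red marks the fits with an adjusted p under 0.1.

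The summed levels of some marker lists also differed between genotypes. The HC list summed to 8385 to 9968 CPM in homozygous mutants, 10338 to 13905 CPM in heterozygotes and 10998 to 16327 CPM in wild-type libraries, so homozygous mutants lay below both other groups, which overlapped. Its 11 genes did not change alike, and 1, Espn, was called lower (log2 fold change -1.18 against wild-type). Pou4f3 (0.03) and Tmc1 (0.38) lay above 0, and the other genes ran from -1.07 (Otof) to -0.10 (Myo6). The neuron list (12 genes, 8 with enough reads, 0 called) summed to 74.2 to 119 CPM in homozygous mutants, 124 to 140 CPM in heterozygotes and 146 to 174 CPM in wild-type libraries, in the order of Scn3b with no overlap, although its genes did not move together. Of the 8, Rbfox3, Syn1, Ntrk2 and Ntrk3 had log2 fold changes below 0 in homozygous mutants against wild-type (-2.91 to -0.83), and Nefh, Stmn2, Elavl4 and Slc17a6 had values above 0 (0.75 to 2.76). Of its defining genes, Tubb3, Prph, Thy1 and Elavl3 did not have enough reads, and Prph had reads in 3 of the 9 libraries. The supporting cell list (10 genes, 0 called) summed to 1548 to 2068 CPM in homozygous mutants, 1668 to 2645 CPM in heterozygotes and 1649 to 3313 CPM in wild-type libraries, and all 5 red blood cell genes were at 0 reads. The CD326 gate was set to leave out neurons, which can carry the reporter without CD326. The authors, citing a published data set, describe Scn3b as high in and specific to HCs at P1. The part of these cell types in the Scn3b result was not tested.

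With CPM divided by the length of the exons in kilobases (RPKM), which allows levels of different genes to be compared, Scn3b was at 22.3 ± 1.49 in homozygous mutant, 31.7 ± 2.70 in heterozygous and 47.7 ± 10.9 in wild-type HCs (SD, n = 3 each).

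**Figure D3:**
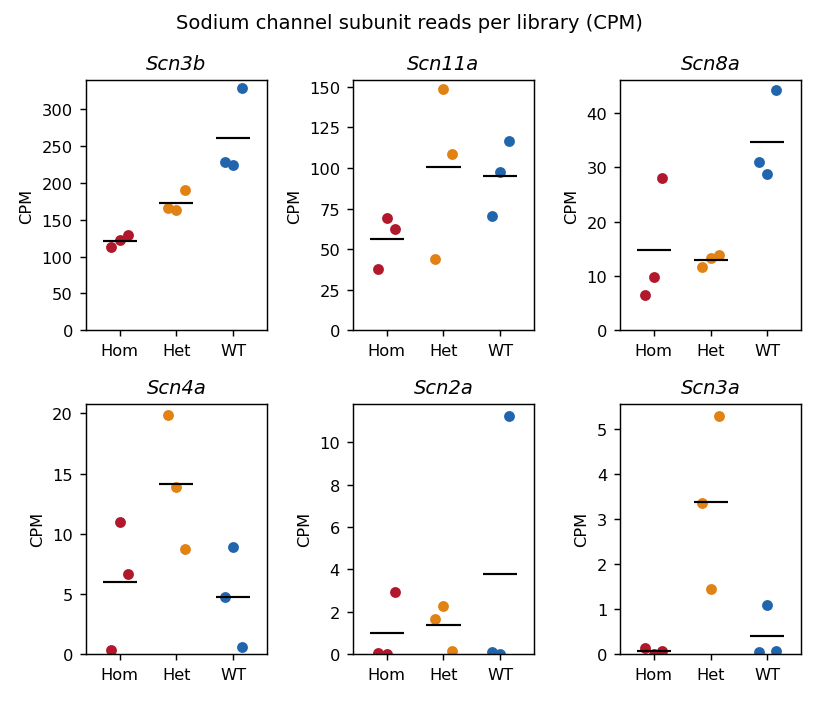
CPM of 6 sodium channel subunit genes with enough reads, with 1 point per library and a line at the mean of each genotype. The 3 Scn3b groups are separate, with 113 to 130 CPM in homozygous mutants and 225 to 329 CPM in wild-type HCs, and Scn4a and Scn2a overlap between these 2 groups.

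Among the sodium channel pores, Scn11a, which forms a tetrodotoxin-resistant channel known from pain-sensing neurons, was the most abundant per length in each group. It averaged 9.50 ± 2.74 RPKM in homozygous mutant, 16.9 ± 8.91 RPKM in heterozygous and 16.0 ± 3.88 RPKM in wild-type HCs (SD, n = 3 each). Scn8a, the pore at nodes of Ranvier, averaged 0.934 ± 0.733 RPKM in homozygous mutant, 0.823 ± 0.0695 RPKM in heterozygous and 2.20 ± 0.530 RPKM in wild-type HCs, below Scn11a in every group. Scn11a took 69.8 to 78.5% of the summed RPKM of the 10 pores in homozygous mutants, 62.2 to 84.4% in heterozygotes and 66.0 to 79.0% in wild-type libraries, so its share of the class overlapped between genotypes.

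Scn11a (GRCm38 chr9:119753759-119825456) was at 38.0, 68.9 and 62.2 CPM in homozygous mutant, 43.9, 149 and 108 CPM in heterozygous and 70.7, 97.6 and 116 CPM in wild-type libraries. The homozygous mutant libraries were all below wild-type, the nearest pair being 68.9 and 70.7 CPM, and the difference did not pass (log2 fold change -0.75, standard error 0.40, edgeR adjusted p = 0.426). Against heterozygotes, whose range covered that of wild-type, the log2 fold change was -0.83 (standard error 0.40, edgeR unadjusted p = 0.0488, adjusted p = 0.730). With the mouse number class in the model the difference from wild-type was -0.04.

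Scn8a (GRCm38 chr15:100869858-101045938) was at 6.54, 9.72 and 27.9 CPM in homozygous mutant, 11.7, 13.4 and 13.8 CPM in heterozygous and 31.0, 28.7 and 44.2 CPM in wild-type libraries. Both Dmdo groups lay below wild-type in every library, although homozygous mutant 47 was within 1 CPM of wild-type 55. Neither difference passed (log2 fold change -1.23, standard error 0.68, edgeR adjusted p = 0.452 in homozygous mutants, and -1.42, standard error 0.68, edgeR unadjusted p = 0.0507, adjusted p = 1 in heterozygotes). The homozygous mutant value rested on single libraries, at -2.09 without homozygous mutant 47 and -0.84 without homozygous mutant 43. Complete separation below wild-type was seen in 3 of 23 channel genes for homozygous mutants (Scn3b, Scn8a and Scn11a), against 8.9% of all genes, and in 3 of 23 for heterozygotes (Scn3b, Scn8a and Cacnb3), against 5.38%. The 2 comparisons share the wild-type libraries.

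Scn3a, Scn4a and Scn2a were low and uneven among mice. Scn3a, a pore of the embryonic nervous system, had 4, 0 and 2 reads in homozygous mutant, 103, 48 and 190 reads in heterozygous and 1, 30 and 1 reads in wild-type libraries. It was thus seen mainly in heterozygotes, through which alone it met the read minimum. It passed no test (edgeR adjusted p = 0.730 between homozygous mutants and heterozygotes). Scn4a, the pore of skeletal muscle, ranged from 0.348 to 11.0 CPM in homozygous mutants, 8.73 to 19.8 CPM in heterozygotes and 0.550 to 8.93 CPM in wild-type libraries. Scn2a had 92 reads in homozygous mutant 47, at most 75 in heterozygotes and 205 in wild-type 59, and no more than 5 reads in 5 libraries.

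Among the calcium channel pores described, Cacna1b, the pore of the N-type channel of presynaptic terminals, had the highest mean per length in each group. It averaged 2.46 ± 1.13 RPKM in homozygous mutant, 4.44 ± 1.13 RPKM in heterozygous and 4.18 ± 2.08 RPKM in wild-type HCs (SD, n = 3 each), and overlapped in wild-type with the next, the P/Q-type pore Cacna1a. In CPM, Cacna1b (GRCm38 chr2:24603887-24763152) was at 33.4, 28.2 and 11.9 in homozygous mutant, 52.4, 48.7 and 31.3 in heterozygous and 26.2, 65.1 and 33.5 in wild-type libraries. The groups overlapped and the difference did not pass (log2 fold change -0.76, standard error 0.51, edgeR adjusted p = 0.564).

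Cacna1g, the pore of a T-type (low-voltage-activated) channel, was the only one of the 23 in which every homozygous mutant library lay above wild-type, where 7.61% of all genes did so. It was at 5.11, 10.8 and 7.47 CPM in homozygous mutant, 0.0980, 8.91 and 3.99 CPM in heterozygous and 0.275, 1.66 and 0.110 CPM in wild-type libraries, the last from 6, 46 and 2 reads. Cacna1g met the read minimum in homozygous mutants and heterozygotes but not in wild-type, so its place above wild-type was partly set by that minimum. The fitted log2 fold change of 3.50 has a standard error of 1.95 and did not pass (edgeR adjusted p = 0.455). Leaving out wild-type 55 moved it to 5.30, leaving out both wild-type 59 and homozygous mutant 46 gave 2.71, and the mouse number class in the model gave 5.72. Cacna1h, a second T-type pore, overlapped between groups, with 5.82 to 22.4 CPM in homozygous mutants, 12.6 to 15.7 CPM in heterozygotes and 0.385 to 19.4 CPM in wild-type libraries.

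Cacna1a, Cacna1c and Cacna1e, which form P/Q-, L- and R-type channels, were near 0 in some mice and present in others of the same genotype. Cacna1a had 180, 5 and 2 reads in homozygous mutant, 154, 79 and 5 reads in heterozygous and 113, 89 and 795 reads in wild-type libraries. Cacna1e had 3, 333 and 3 reads in homozygous mutant, 186, 92 and 40 reads in heterozygous and 1, 228 and 186 reads in wild-type libraries. Differences of more than 10-fold within 1 genotype (values under 3 reads set to 3 reads) were seen in 9 of the 23 channel genes (39.1%), against 36.4% of all genes tested. These were Cacna1a, Cacna1c, Cacna1e, Cacna1g, Cacna1h, Cacna2d4, Cacng4, Scn2a and Scn4a. The median coefficient of variation between mice fitted by edgeR was 0.674 for the channel genes and 0.531 for all genes.

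**Figure D4:**
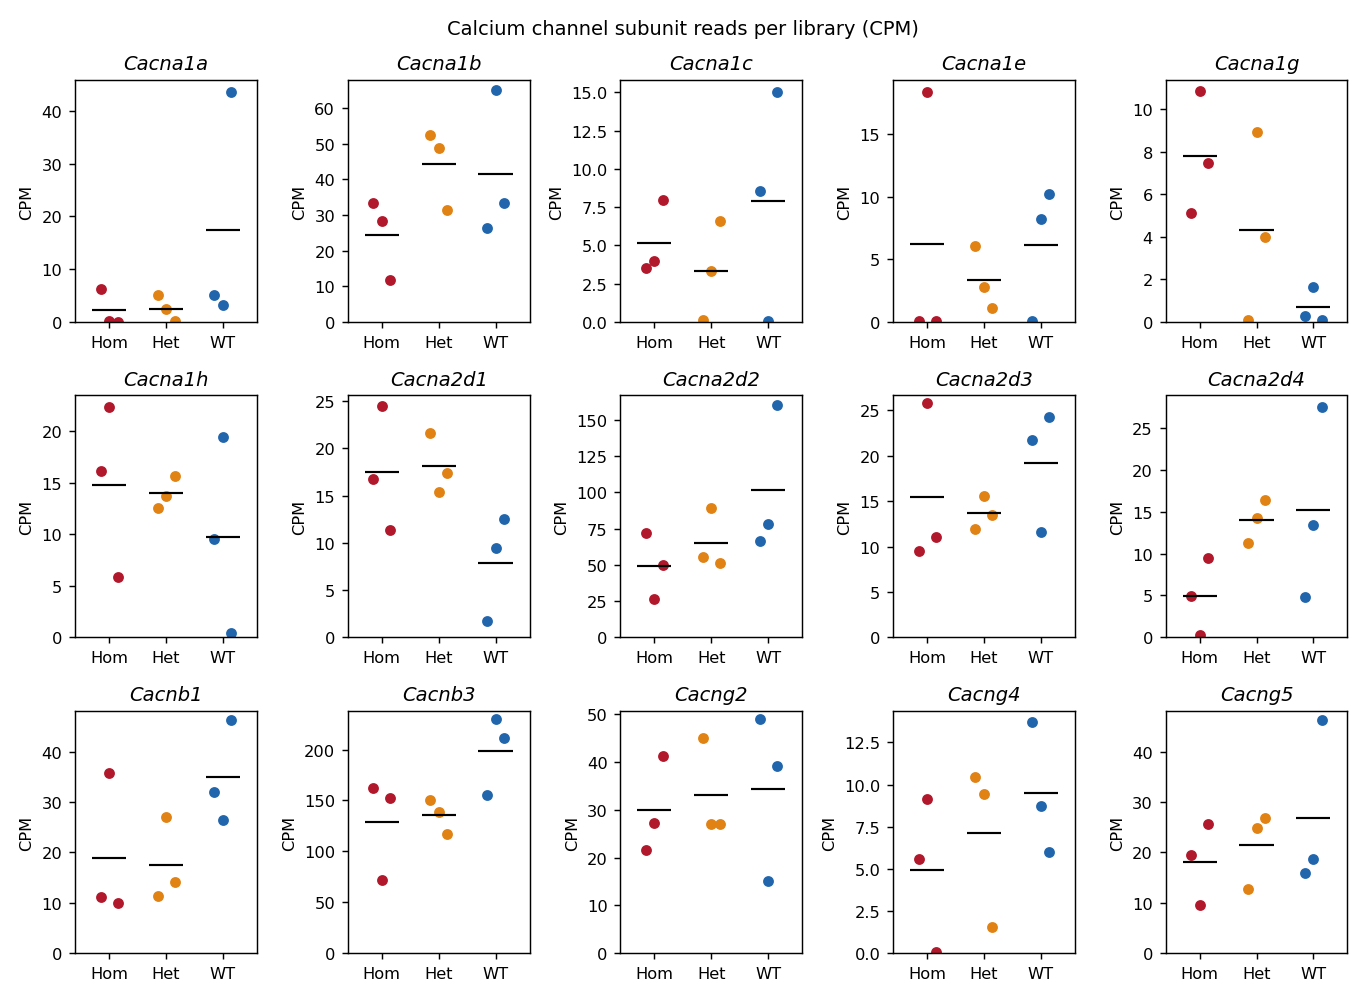
CPM of the 15 calcium channel subunit genes with enough reads, with 1 point per library and a line at the mean of each genotype. Cacna1g is above wild-type in all 3 homozygous mutant libraries (5.11 to 10.8 against 0.110 to 1.66 CPM), while Cacna1a, Cacna1c and Cacna1e have points near 0 beside higher ones in the same genotype.

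Of the alpha2delta subunits, Cacna2d2, the subunit lost in the ducky mouse, had the highest mean per length in each group. It averaged 6.21 ± 2.83 RPKM in homozygous mutant, 8.22 ± 2.63 RPKM in heterozygous and 12.8 ± 6.39 RPKM in wild-type HCs (SD, n = 3 each), with no overlap in wild-type with the next, Cacna2d3. Cacna2d2 (GRCm38 chr9:107399612-107529343) was at 71.6, 26.7 and 49.8 CPM in homozygous mutant, 55.2, 89.3 and 51.4 CPM in heterozygous and 66.8, 78.4 and 160 CPM in wild-type libraries. The groups overlapped through homozygous mutant 43. The log2 fold change of -1.04 had the second smallest p of the 23 but did not pass (standard error 0.42, edgeR unadjusted p = 0.0214, adjusted p = 0.288). Without wild-type 59 and homozygous mutant 46, the libraries with the highest and lowest values, it was -0.24 (edgeR adjusted p = 0.881). An antisense transcript, Gm17141, shares 82 exon bases with Cacna2d2, and whether the authors' counting used strand is not known from the sources used here.

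None of the other alpha2delta genes passed the test. Cacna2d1 was at 11.4 to 24.5 CPM in homozygous mutant, 15.4 to 21.6 CPM in heterozygous and 1.79 to 12.5 CPM in wild-type libraries, so the heterozygous group was wholly above wild-type, as in 5.41% of all genes, and the homozygous mutants were not (log2 fold changes 1.14 and 1.19, standard errors 0.86, edgeR adjusted p = 0.630 and 1). Cacna2d4, the subunit of photoreceptor channels, was at 0.276 to 9.44 CPM in homozygous mutants, 11.3 to 16.3 CPM in heterozygotes and 4.76 to 27.5 CPM in wild-type libraries. With Scn3a and Scn3b it was among the 3 of 23 genes whose homozygous mutant libraries all lay below the heterozygous ones, against 7.27% of all genes. Scn3a met the read minimum in heterozygotes alone, so its place in this count was partly set by that minimum. None of the 23 lay wholly above the heterozygous libraries, against 6.95% of all genes.

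Of the 3 beta subunits described, Cacnb3 had the highest RPKM in each of the 9 libraries. It took 66.4 to 94.5% of their summed RPKM in homozygous mutants, 85.2 to 93.8% in heterozygotes and 83.8 to 90.5% in wild-type libraries. It was also the most abundant calcium channel gene of those described per length, at 32.1 ± 12.4 RPKM in homozygous mutant, 33.7 ± 4.21 RPKM in heterozygous and 49.6 ± 9.74 RPKM in wild-type HCs (SD, n = 3 each). Cacnb3 (GRCm38 chr15:98630840-98644529) was at 162, 71.9 and 152 CPM in homozygous mutant, 150, 138 and 117 CPM in heterozygous and 155, 230 and 211 CPM in wild-type libraries. The heterozygous libraries lay below wild-type, by 150 against 155 CPM at the nearest, and homozygous mutant 43 did not. Neither difference passed (log2 fold change -0.63, standard error 0.31, edgeR adjusted p = 0.387 in homozygous mutants, and -0.56, standard error 0.31, edgeR adjusted p = 1 in heterozygotes). Cacnb1, the beta subunit of skeletal muscle channels, was at 9.95 to 35.7 CPM in homozygous mutants, 11.3 to 27.0 CPM in heterozygotes and 26.5 to 46.3 CPM in wild-type libraries.

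**Figure D5:**
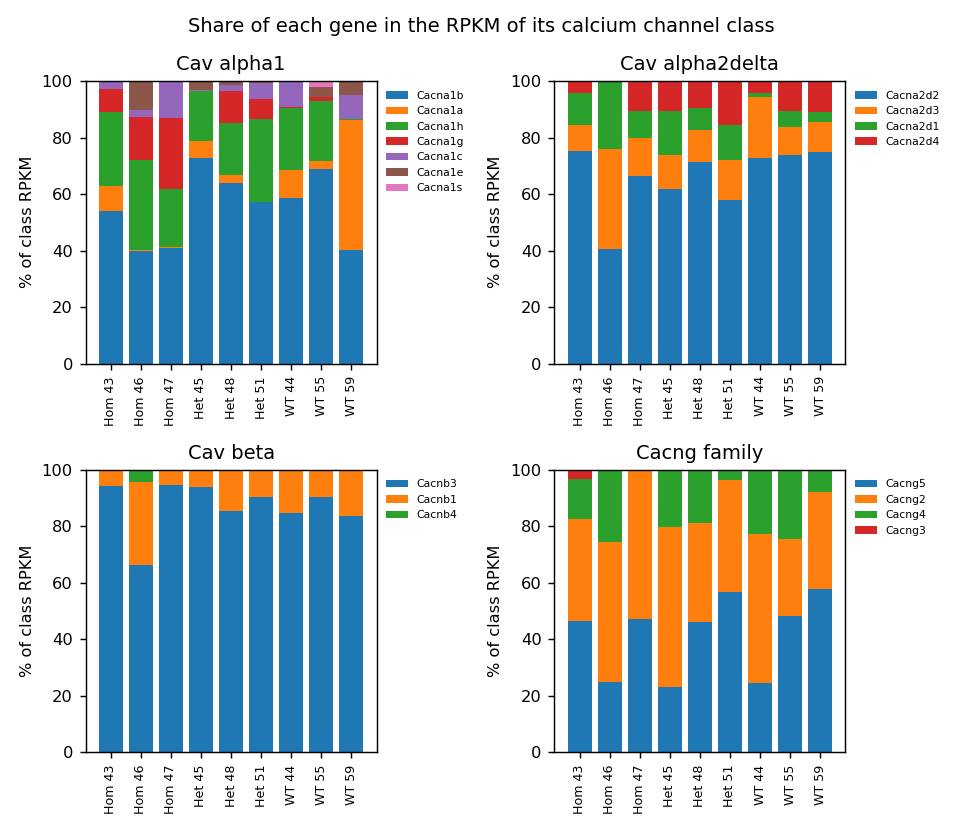
Share (%) of each gene in the summed RPKM of the described genes of its subunit class, with 1 bar per library, for the 4 classes of calcium channel (Cav) subunits. Cacnb3 takes most of the RPKM of the 3 beta subunits described in every library, with 66.4 to 94.5% in homozygous mutants, against 83.8 to 90.5% in wild-type libraries.

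In the Cacng family, Cacng5 and Cacng2 (stargazin), both partners of AMPA-type receptors, had the highest means per length in each group, without a fixed order among libraries, and Cacng4 had the third (in homozygous mutant 46 Cacng4 was above Cacng5). Cacng5 (GRCm38 chr11:107874605-107915055) was at 19.5, 9.44 and 25.6 CPM in homozygous mutant, 12.7, 24.9 and 26.8 CPM in heterozygous and 15.8, 18.6 and 46.3 CPM in wild-type libraries. The groups overlapped, and the log2 fold change of -0.56 (standard error 0.66, edgeR adjusted p = 0.787) turned to 0.079 without wild-type 59. Cacng2 was at 21.5 to 41.4 CPM in homozygous mutants, 27.0 to 45 CPM in heterozygotes and 15.0 to 49.0 CPM in wild-type libraries. All 3 genes had log2 fold changes below 0 against wild-type, from -0.94 to -0.20, none beyond its error.

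Between heterozygous and wild-type HCs, edgeR called 0 of the 23 channel genes and 0% of all genes. At an unadjusted p under 0.05 there was 1, Scn3b, where 4.52% of all genes passed. DESeq2 called 0 of the 23 and 0.296% of all genes, and limma-voom 0 of the 23 and 0.00659% of all genes. The median log2 fold change of the 23 was -0.41 (all genes -0.03), with 15 below 0, against 52.6% of all genes. The same wild-type libraries entered this median and that of the homozygous mutants.

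Between homozygous mutant and heterozygous HCs, edgeR called 0 of the 23, against 0.00659% of all genes (1 gene). At an unadjusted p under 0.05 there was 1, Scn11a, where 6.78% of all genes passed. DESeq2 called 0 of the 23 and 0.962% of all genes, and limma-voom 0 of the 23 and 0.994% of all genes. The median log2 fold change of the 23 was -0.14 (all genes 0.00), with 14 below 0, against 50% of all genes.

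A list of known partners of these channels (fibroblast growth factor homologous factors, ankyrins, calmodulins, calcium-binding proteins, small GTPase regulators and the sodium leak channel complex) held 28 gene symbols. Of these, 27 were in the table (the symbol Fam155a was not) and 21 had enough reads. None was called between homozygous mutant and wild-type HCs by edgeR, against the 1.15% of all genes. The median log2 fold change was 0.01, with 10 below 0 and 11 above, unlike the channel genes' 17 below 0 and 6 above, a contrast given as a description. Cabp1, a calcium-binding protein that modulates calcium channels, had 4, 0 and 1 reads in homozygous mutant, 114, 94 and 134 reads in heterozygous and 169, 280 and 0 reads in wild-type libraries (edgeR adjusted p = 0.282). It was absent or nearly so from all homozygous mutants and also from wild-type 59. Ank2, an ankyrin, had a log2 fold change of 2.51 (edgeR adjusted p = 0.314) and Nfasc, neurofascin, of -0.87 (standard error 0.37, edgeR adjusted p = 0.316). Cabp2 and Cabp4 were at 0 reads in every library.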

How the data were processed

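Libraries of RNA from HCs of 9 mice at P1 were made by the authors by NEBNext Ultra Directional library preparation with 22 PCR cycles. After alignment to GRCm38 (HISAT2 2.0.4) and counting per gene (HTSeq), the authors deposited raw read counts for 43808 Ensembl genes per library, with no normalization. The strand setting of the counting, and which 2 mice had the lower RNA integrity that the methods mention, are not given in the sources used here. Genotypes and mouse numbers came from the labels. Each mouse was counted as 1 replicate, because genotype belongs to the mouse and each mouse gave 1 library. Replicates differed by a chi-square of 103 to 254 per gene, more than sampling noise.

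From the deposited counts, CPM with TMM factors and, per kilobase of merged exons (GENCODE vM21), RPKM were computed. The 15184 genes that reached 20 reads in 2 or 3 libraries of any genotype were tested with the robust quasi-likelihood test of edgeR 4.0.16 over all 9 libraries, with Benjamini-Hochberg adjustment over all of them. Calls required a false discovery rate under 10% together with a change of more than 1.5-fold. Errors of means are SD over 3 mice. Standard errors given with edgeR values were derived, as the absolute log2 fold change divided by the square root of the F statistic of the test. Intervals from 0 reads (3 reads) cover counting error only.

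Described in full were Scn3b, genes called in any comparison by edgeR or DESeq2, the 6 of smallest p between homozygous mutant and wild-type, and the most abundant gene of each subunit class per length in wild-type. The members and the lists of partners and cell type markers were chosen with earlier results of these data known. Of the marker lists, the glial, mesenchymal, macrophage and melanocyte lists had 0 genes called, and the muscle and endothelial lists had no gene with enough reads.

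Alternatives were DESeq2 1.42.0, limma-voom (limma 3.58.1) with quality weights, DESeq2-type size factors, library totals, no filter, filterByExpr, the compared genotypes alone, mouse number class, Xist and Ddx3y class, 1 surrogate variable (sva 3.50.0), other thresholds and libraries left out. Values of some genes are not reported here. The tests were tried on simulated counts. R 4.3.3, Python 3.11.15 and pandas 2.3.3 were used.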

Additional observations from a re-analysis of the deposited data

How the results depend on the processing

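Between homozygous mutant and wild-type HCs, the number of channel genes called was 1 in the main analysis and 0 with the compared genotypes alone, with the mouse number class, the Xist and Ddx3y class or 1 surrogate variable in the model, without wild-type 59 and homozygous mutant 46, and at a false discovery rate under 5%. With each library left out in turn it ranged from 0 to 1, and was 0 without wild-type 59, heterozygous 51 or any 1 of the homozygous mutants 43, 46 and 47. For Scn3b these fits gave log2 fold changes from -1.20 to -0.90 (edgeR adjusted p 0.0192 to 0.259), and the compared genotypes alone gave -1.10 (edgeR adjusted p = 0.105) and 1 surrogate variable -0.97 (edgeR adjusted p = 0.134). The number was 1 with DESeq2, limma-voom, the other scalings and the other filters, and 0 under every setting in the other 2 comparisons. The fold change of Cacng5 turned to 0.20 with the mouse number class, 0.41 without wild-type 59 and homozygous mutant 46, and 0.079 without wild-type 59 (-0.89 to 0.079 with each library left out). The other 7 genes given in full kept their direction. Counting 8-base matches alone, 1 gene in place of 10 held a miR-96 match and 2 in place of 4 a Dmdo match. The median log2 fold change of all genes was -0.02 in the main analysis and lay between -0.05 and 0.07 in the others. Which property of the libraries ended a call was not tested. No paired analysis was possible because the labels do not give the litter of each mouse. With 3 mice a group, differences within the printed standard errors were not detectable, and larger ones could also fail to pass. Cacna2d2 did so between homozygous mutant and wild-type HCs (log2 fold change -1.04, standard error 0.42, edgeR adjusted p = 0.288).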

Other observations

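The 5 genes whose log2 CPM was most like that of Scn3b over the 9 libraries were Ctdnep1 (Pearson r 0.971), Mlf2 (0.965), Vangl2 (0.959), Micu3 (0.947) and Acp7 (0.945). Vangl2 is a planar cell polarity gene that orients HCs, Ctdnep1 a nuclear envelope phosphatase and Micu3 a regulator of the mitochondrial calcium uniporter. The points share genotype and library, the genes were picked as the highest of all genes tested, and the values are a description without a test.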
